A study of Homo sapiens with 8 samples.

Results

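Heat shock proteins and their cochaperones are the protein-folding machinery of the cell. Of the genes picked by name as theirs, 56 carried at least 1 m6A peak in human osteosarcoma cells, of 8758 genes with a peak in all. Members were chosen by gene name alone: symbols that begin with DNAJA, DNAJB, DNAJC, HSPA, HSPB, HSPD, HSPE, HSPG, HSPH or HSF and go on as a family name does, BAG1 to BAG6, the chaperonin genes CCT2 to CCT8, and STIP1, STUB1 and AHSA1. HSPG2 and HSPBAP1 match by name only, and the HSP90 genes fall outside the rule. The 56 genes held 754 of the 130622 listed peaks. N6-methyladenosine (m6A), a base modification of messenger RNA, was mapped by MeRIP-seq: RNA fragments pulled down by an antibody to m6A are set against the input RNA they were taken from. U2OS and 143B, both established osteosarcoma lines, were infected with a lentiviral hairpin against METTL14 (shMETTL14) or with a control hairpin (shNC, here NC), so both arms of each line carry a lentivirus. METTL14 is a subunit of the complex that writes m6A. Each of the 4 combinations has 1 list of peaks from 1 immunoprecipitated library, and no difference between lists has a replicate check.

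HSP70 proteins bind unfolded polypeptides in cycles of ATP hydrolysis. J-domain proteins (DNAJ) bring them clients and start the hydrolysis, and nucleotide exchange factors such as the BAG proteins and the HSP110 family release the nucleotide. HSP90, joined to HSP70 by STIP1 and spurred by AHSA1, matures kinases and receptors, while the chaperonins CCT and HSPD1 with HSPE1 fold proteins inside a closed chamber. Under heat or proteotoxic stress, heat shock factors bind heat shock elements in the promoters of many of these genes. In other human and mouse cells, m6A in the 5' UTR of heat-induced HSP70 messages has been tied to their translation under stress; no stress was applied here as far as the labels say.

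The heat shock element is a run of alternating GAA and TTC units. Heat shock factors act through it on many of these genes, so its copies are shown first. Promoters from RefSeq (build GRCh38.p14, 250 bases before to 50 after the gene start) were found for 51 of the 56 genes. GAANNTTCNNGAA or its other strand TTCNNGAANNTTC was present in 4 of them, DNAJA1, DNAJB6, HSPA8 and HSPD1 (7.84%), and in 85 of 15843 coding genes (0.537%). The shorter GAANNTTC or TTCNNGAA, which every copy of the longer form contains, was present in 16 of the 51 (31.4%) and in 14.9% of coding genes. For the 3 genes whose longer element lies before the start, the stretch around it reads as follows, 5' to 3' on the strand of the gene, with the elements in capitals.
DNAJB6: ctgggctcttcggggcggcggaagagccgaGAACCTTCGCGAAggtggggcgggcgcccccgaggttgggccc
HSPD1: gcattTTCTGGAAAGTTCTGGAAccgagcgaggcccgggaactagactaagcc
HSPA8: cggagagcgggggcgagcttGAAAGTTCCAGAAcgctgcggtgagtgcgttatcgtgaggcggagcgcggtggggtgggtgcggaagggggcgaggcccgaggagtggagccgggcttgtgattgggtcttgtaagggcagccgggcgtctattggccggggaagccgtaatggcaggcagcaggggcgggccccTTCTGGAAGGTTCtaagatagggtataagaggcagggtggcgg
These lie at chr7:157336843-157336915 on the plus strand, chr2:197500038-197500090 on the minus strand and chr11:123062149-123062386 on the minus strand of GRCh38. HSPD1 has 2 overlapping copies, and HSPA8 has 2 separate ones. All 4 genes with the longer element had an m6A place listed in all 4 lists, as did 42 of the 56 genes. The letters describe the DNA and not the m6A peaks, whose own sequence is not shown because the files use another build, hg19.

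The 4 lists were alike in how many of these genes they held. Each listed 49 of them, with 78 sites in U2OS shMETTL14, 69 in U2OS NC, 81 in 143B shMETTL14 and 71 in 143B NC. A site is a set of peaks that overlap on 1 strand, since a locus is listed once for every isoform it lies in. The corresponding peaks numbered 193, 170, 208 and 183. The ratio of shMETTL14 to NC sites was 1.13 in U2OS and 1.14 in 143B, against 0.925 and 1.05 over all sites. The counting intervals, 0.807 to 1.59 and 0.819 to 1.59, treat the lists of a line as independent counts, though most sites are shared. Whether either ratio differs from 1 was not tested. In U2OS, 10 of 51 member genes had more sites with shMETTL14 and 4 had fewer, and in 143B 14 of 51 had more and 6 fewer. Among all genes with a site, 23.8% had more and 32.3% fewer in U2OS, and 32.2% more and 26.0% fewer in 143B. Part of the added number came from sites that split: HSPE1 had 2 sites covering 121 nt with shMETTL14 and 1 covering 166 nt with NC in U2OS, with no peak gained or lost.

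**Figure D1:**
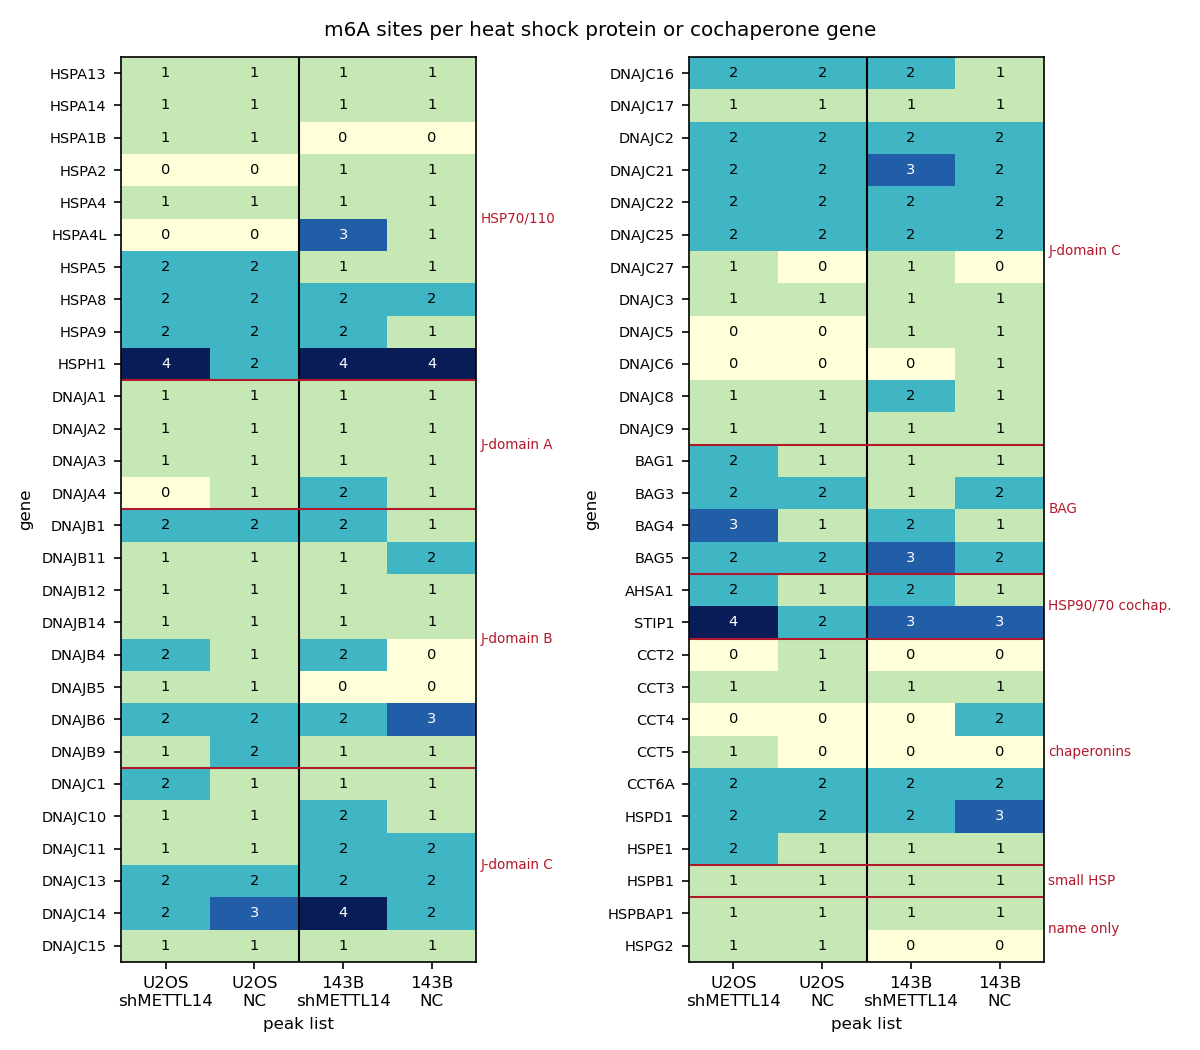
Number of m6A sites per gene (cells, 0 to 4) in each of the 4 peak lists, with genes grouped by role and red lines between the groups. Most rows are even across the lists, HSPH1 has 4 sites in 3 lists and 2 in U2OS NC, and DNAJC27 has sites with shMETTL14 and none with NC.

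Member places were more often listed in all 4 lists than places at large. Peaks of all lists that overlap on 1 strand were joined to places, which gave 94 for these genes. Of these, 53 had a peak in all 4 lists (56.4%, exact 95% interval 45.8 to 66.6), against 5636 of all 18714 places (30.1%). No member place was listed in both NC lists and absent from both shMETTL14 lists, against 1.92% of all places. Places in both shMETTL14 lists and neither NC list numbered 2 (2.13%, against 2.25% of all). Of the member places, 2 were in U2OS shMETTL14 alone (2.13%, against 6.03% of all places), 3 in U2OS NC alone (3.19%, against 9.17%), 10 in 143B shMETTL14 alone (10.6%, against 12.3%) and 7 in 143B NC alone (7.45%, against 10.3%). A further 6 were in every list but 143B NC (6.38%, interval 2.38 to 13.4), against 3.76% of all places. Such counts treat places as independent, and the intervals cover counting error only. Peaks were joined stepwise, so peaks of 2 lists in 1 place need not overlap each other. At the 5' place of DNAJB1, the U2OS NC and 143B shMETTL14 sites do not. Member peaks had more than 1 spliced block more often, 49.5% to 54.4% by list against 34.5% to 39.2% of all peaks. The part of this joining in the 56.4% was not tested.

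**Figure D2:**
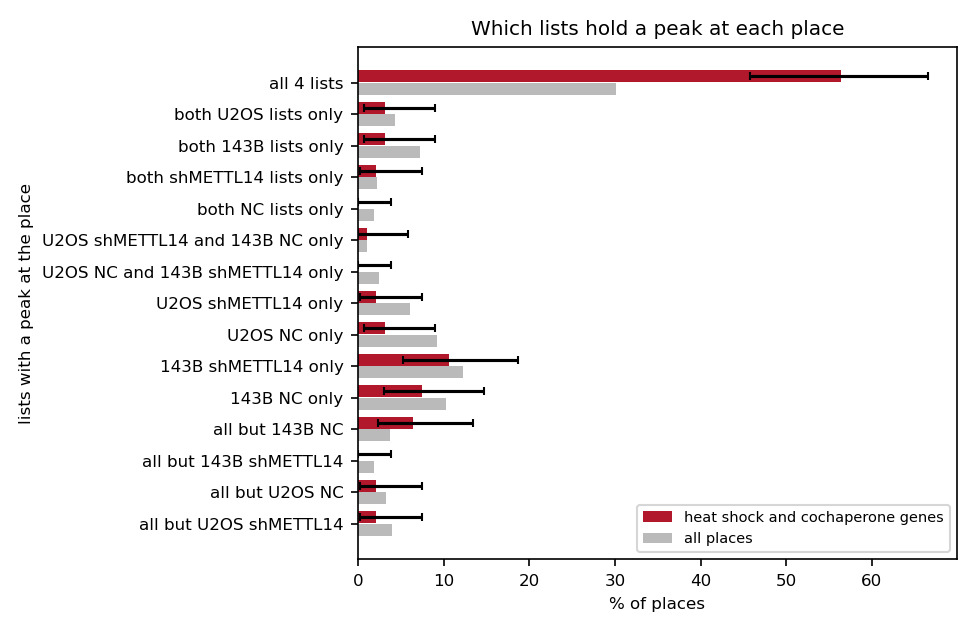
Share of places (percent, x axis) by which of the 4 lists hold a peak there, for heat shock and cochaperone genes (red, 94 places, bars with exact 95% intervals) and all places (grey, 18714). Places in all 4 lists make up 56.4% of the red set and 30.1% of the grey one.

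METTL14 knockdown left most member peaks with a partner in the other list of the line. An shMETTL14 peak with no overlapping NC peak is called gained and an NC peak with no overlapping shMETTL14 peak is called lost; both words describe lists, not a measured change of methylation. In U2OS, 23 of 193 shMETTL14 peaks were gained (11.9%, interval 7.71 to 17.3), against 20.9% of the whole list. In the same line, 11 of 170 NC peaks were lost (6.47%, interval 3.27 to 11.3), against 26.9%. In 143B, 33 of 208 shMETTL14 peaks were gained (15.9%, interval 11.2 to 21.6; whole list 27.3%). Of the 183 143B NC peaks, 14 were lost (7.65%, interval 4.25 to 12.5; whole list 20.7%). All 4 shares thus lay below the share of their list. In sites, 8 of 78 were gained (10.3%; whole list 24.9%) and 5 of 69 lost (7.25%; whole list 31.2%) in U2OS. In 143B, 19 of 81 sites were gained (23.5%, interval 14.8 to 34.2), and this interval includes the 32.0% of all sites; 8 of 71 were lost (11.3%; whole list 24.6%). Both lines had 2 genes listed only with shMETTL14 and 2 listed only with NC, 4.08% of 49 each time. For all genes these shares were 12.4% and 16.9% in U2OS and 15.5% and 11.8% in 143B.

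**Figure D3:**
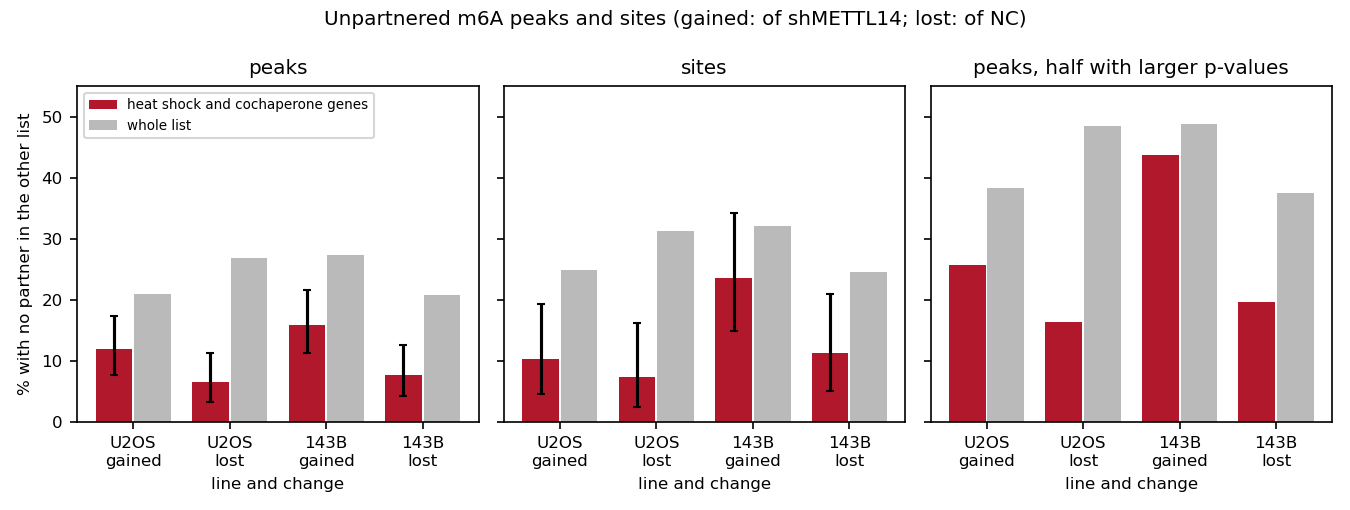
Percent of peaks (left), sites (middle) and peaks above the median p-value of each list (right) that have no partner in the other list of the line; gained is a share of shMETTL14, lost a share of NC. Red bars are heat shock and cochaperone genes, with exact 95% intervals in the first 2 panels, and grey bars the whole list; red is below grey throughout, with the least distance for gained in 143B on the right (43.7% and 48.8%).

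The p-value of a peak moved with these shares, while fold enrichment did so in no common direction. Each peak has a p-value and a fold enrichment from the authors' peak caller, which serve here to rank peaks inside 1 list. Member peaks had small p-values: in U2OS the medians were 3.7e-07 with shMETTL14 and 9.1e-08 with NC, where the whole lists had 2.5e-06 and 3.5e-06. In 143B they were 2.5e-12 with shMETTL14 and 6.8e-10 with NC, where the whole lists had 5.8e-07 and 7.1e-06. Fold enrichments of members, in contrast, were low in every list, with medians of 2.66 and 2.74 in U2OS and 2.76 and 2.98 in 143B (shMETTL14 and NC in each), against list medians of 3.54, 3.6, 3.59 and 3.79. Among peaks with a p-value under their list's median, 2 of 111 member peaks were gained (1.80%; list 3.56%) and 1 of 109 lost (0.917%; list 5.17%) in U2OS. In 143B the same peaks had 2 of 137 gained (1.46%; list 5.85%) and 3 of 127 lost (2.36%; list 3.92%). Among peaks above the median p-value, 25.6% of members and 38.3% of the list were gained and 16.4% of members and 48.5% of the list were lost in U2OS. In 143B, 43.7% of members and 48.8% of the list were gained, and 19.6% of members and 37.5% of the list lost. The part of the p-value in the low member shares was not tested further. Among peaks of 143B shMETTL14 above the median fold enrichment, 17 of 70 member peaks were gained (24.3%), and 24.1% of the list. At or below that median, 11.6% of members and 30.5% of the list were gained. In U2OS shMETTL14, the gained shares were 4.92% of members (list 20.6%) above it and 15.2% (21.3%) at or below it. Lost shares were 5.08% (list 26.0%) above and 7.21% (27.7%) at or below it in U2OS NC. In 143B NC they were 14.0% (22.4%) and 5.26% (19.0%).

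**Figure D4:**
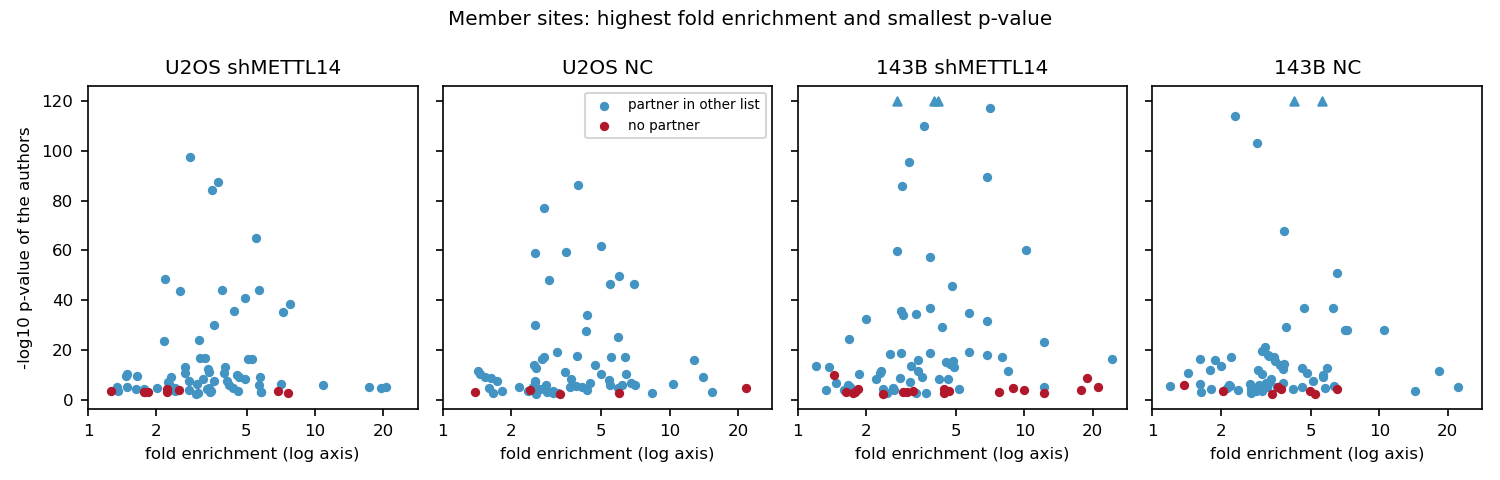
Member sites of each list by highest fold enrichment (x, linear ratio on a log axis) and smallest authors' p-value (y, as -log10; triangles mark values above 120, including 1 p-value listed as 0). Blue points have a partner in the other list of the line and red points have none; the red points lie at the bottom, across the range of fold enrichment.

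Member peaks lay more often across the stop codon than the lists as a whole. Such peaks made up 24.9% of member peaks in U2OS shMETTL14 (interval 18.9 to 31.6) and 25.9% in U2OS NC (19.5 to 33.1), against 15.7% in both whole lists. In 143B they were 26.4% with shMETTL14 (20.6 to 33.0) and 29.0% with NC (22.5 to 36.1), against 16.6% and 16.3%. These shares count a locus once for each isoform entry, and the intervals treat entries as independent, so they are likely too narrow. The HSPA8 stop codon place alone gave 6 entries in each U2OS list and 7 in each 143B list. Peaks inside the 3' UTR were fewer, 15.0% and 14.7% in U2OS and 13.9% and 12.6% in 143B, where the lists had 22.4%, 22.7%, 25.0% and 25.0%. The messages are also short: the median transcript behind a member peak was 2299 nt in both U2OS lists, against 3351 nt with shMETTL14 and 3389 nt with NC in the whole lists. Stop codon peaks were less often without a partner than the lists as a whole, among members and all genes alike. In U2OS 2 of 48 member peaks with shMETTL14 were gained (all stop codon peaks 9.26%) and 1 of 44 with NC was lost (all 11.4%). In 143B 0 of 55 were gained (all 10.5%) and 1 of 53 was lost (all 8.81%). In 143B shMETTL14, 12 of 29 member peaks in the 3' UTR were gained (41.4%), close to the 39.1% of all 3' UTR peaks in that list. All 4 member peaks in the 5' UTR were gained there (all 5' UTR peaks 40.2%). They were 3 entries of 1 HSPH1 site and 1 DNAJC14 peak with a weak p-value of 0.0018. The HSPH1 entries were shared when whole spans were compared.

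**Figure D5:**
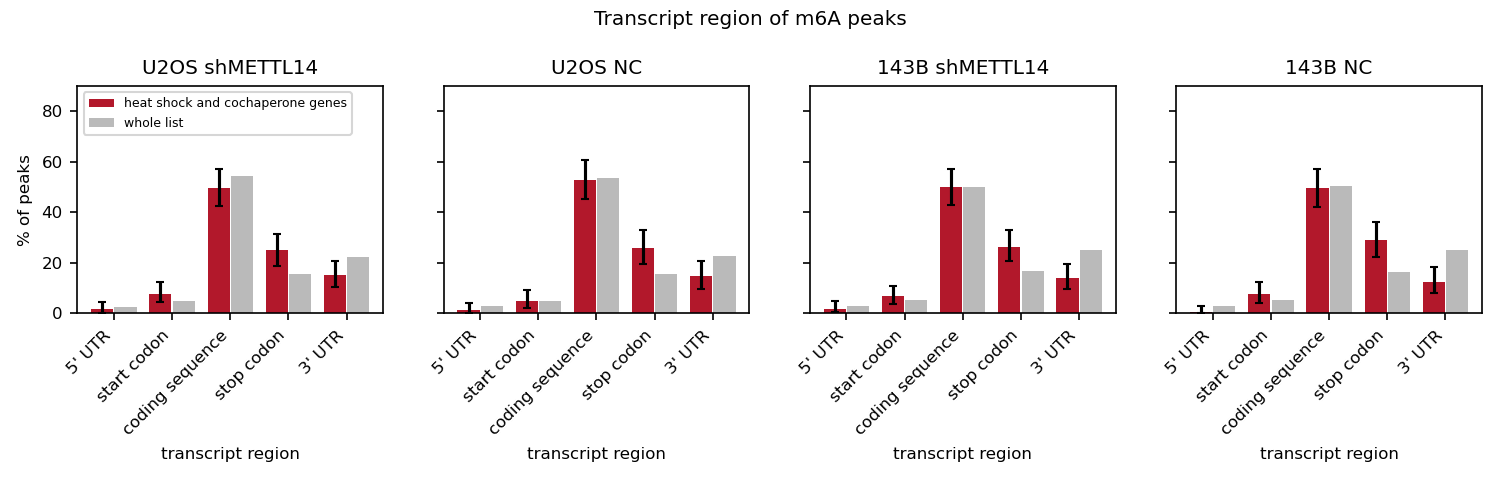
Percent of peaks (y axis) in each transcript region for heat shock and cochaperone genes (red, exact 95% intervals) and the whole list (grey), 1 panel per list. In all 4 panels the stop codon share of members is above that of the list and their 3' UTR share below it.

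HSP70 and HSP110 chaperones held several of the smallest member p-values in each list. HSPA8, the constitutive HSP70 of the cytosol, had a place across its stop codon (chromosome 11, 122928197 to 122928556, hg19, as for all peak positions) with 6 peaks in each U2OS list and 7 in each 143B list. Its fold enrichment was 3.91 with shMETTL14 and 4.97 with NC in U2OS, and 3.98 with shMETTL14 and 5.60 with NC in 143B. A second HSPA8 place, in the coding sequence, had fold enrichments of only 1.20 to 1.46. The listed HSPA8 peaks in U2OS numbered 9 with shMETTL14 and 14 with NC, yet none was gained or lost, because the missing entries lay in a place that stayed listed. HSPA9, the mitochondrial HSP70, kept its stop codon place in all 4 lists, with fold enrichments of 3.75 and 3.50 in U2OS and 4.17 and 4.19 in 143B (shMETTL14 and NC in each). A coding place of HSPA9 was listed in both U2OS lists and in 143B shMETTL14 and missing only from 143B NC. There its p-value in 143B shMETTL14 was 1.1e-10, the smallest of any gained member peak in that line. HSPA4, an HSP110-type exchange factor, had 1 peak of 989 to 1079 spliced nt in every list, with p-values from 1.0e-110 to 1.0e-68.

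HSPA5 (BiP), the HSP70 of the endoplasmic reticulum, had a place around its stop codon and 3' UTR in all lists, with fold enrichments of 2.82 and 2.78 in U2OS and 3.11 and 2.90 in 143B (shMETTL14 and NC in each). U2OS NC alone listed a further 3' UTR peak (chromosome 9, 127998236 to 127998414) at 21.8, the highest fold enrichment among the lost member sites of that list. It had an overlapping partner in no other list, but with shMETTL14 a peak lay within 100 bp, and under that looser rule no HSPA5 peak was lost. HSPA13 and HSPA14, a microsomal and a ribosome-associated relative, each had 1 place in all 4 lists. HSPA1B, a stress-induced HSP70, had 1 peak of its 3' UTR in each U2OS list, at fold enrichments of 5.81 with shMETTL14 and 2.57 with NC, and none in 143B. That peak is placed on GL000250.1, an alternate scaffold, and HSPA1A is nearly identical in sequence, so the assignment of its reads is uncertain.

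HSPH1 (HSP105), the stress-induced HSP110, had the most listed peaks of any member over the 4 lists together, 21 in U2OS shMETTL14, 10 in U2OS NC, 19 in 143B shMETTL14 and 18 in 143B NC. Joined, these were 4, 2, 4 and 4 sites. Both of its 3'-most places were in all lists. A coding place (chromosome 13, 31724140 to 31725104) was absent only from U2OS NC. The place at the 5' end, from the 5' UTR over the start codon (31729761 to 31736198), was listed in U2OS shMETTL14 with 5 peaks and in 143B NC with 2, which did not cross the start codon. The other 2 lists had no peak there, so it was gained in U2OS and lost in 143B. In 143B shMETTL14 a separate 91-nt peak of the 5' UTR lay within the span of that place without overlapping its spliced blocks, and when whole spans were compared no HSPH1 peak was gained or lost in 143B. Fold enrichments at the 5' end were low, 2.51 in U2OS shMETTL14, 1.63 in 143B shMETTL14 and 2.04 in 143B NC. HSPH1 gave 10 of the 23 peaks gained in U2OS, which were isoform entries of 2 of the 8 gained member sites. Without HSPH1, 13 of 172 peaks were gained (7.56%), against 20.9% of the whole list.

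HSPA4L and HSPA2 were listed in 143B only. HSPA4L, another HSP110-type gene, had 12 peaks at 3 sites with shMETTL14 and 4 peaks at 1 site with NC. Of the 12, 6 had no partner: 4 at a coding place of their own (chromosome 4, 128743962 to 128748473) and 2 at the place shared with NC. HSPA2, an HSP70 best known from the testis, had 2 coding peaks per list that do not overlap: at 65009213 to 65009327 with shMETTL14 and at 65009332 to 65009476 with NC on chromosome 14. They are neighbours, and neither counted as changed when peaks within 100 bp were taken as shared.

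Type A and B J-domain proteins, the general partners of HSP70, mostly kept their places. DNAJA1, DNAJA2 and DNAJA3, the last of them mitochondrial, each had 1 site in all 4 lists with fold enrichments between 2.19 and 3.58; 1 of 4 DNAJA3 peaks in U2OS shMETTL14 had no partner. DNAJA1 peaks ran through much of the message, with 1191 to 1221 spliced nt. DNAJA4 was the exception. Its start codon place (chromosome 15, 78557006 to 78557216) was absent from U2OS shMETTL14, with a fold enrichment of 5.99 and a weak p-value of 0.0013 in U2OS NC, and stood at 12.2 with shMETTL14 and 22.2 with NC in 143B. 143B shMETTL14 added a weak coding peak (p-value 0.0038).

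DNAJB1 (HSP40), the J-domain partner induced by heat, kept its stop codon place in all lists, at fold enrichments of 2.69 and 2.53 in U2OS and 3.15 and 4.54 in 143B (shMETTL14 and NC in each). A 5' place was in every list but 143B NC, with 1 site from the 5' UTR over the start codon in U2OS shMETTL14, a 5' UTR site in U2OS NC and a coding site in 143B shMETTL14. DNAJB4, another HSP40 of the cytosol, followed the same pattern over its coding sequence, with 4 peaks in U2OS shMETTL14, 2 in U2OS NC, 3 in 143B shMETTL14 and 0 in 143B NC. It was 1 of the 2 genes listed in 143B only with shMETTL14. DNAJB6, a suppressor of polyglutamine aggregation, had 11 peaks in 3 lists and 12 in U2OS shMETTL14, and lost a single peak, a stop codon site at 157178333 to 157178482 on chromosome 7 in 143B. DNAJB9 and DNAJB11, both of the endoplasmic reticulum, kept their stop codon places in all lists, and DNAJB9 lost a weak coding peak in U2OS (p-value 0.0027). DNAJB12 and DNAJB14 had 1 site in each list and kept every peak. DNAJB5 was listed in U2OS only, with 6 peaks at 1 site in each list.

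Type C J-domain proteins, a varied group that shares little beyond the J-domain, gained 2 of 24 sites in U2OS and 8 of 30 in 143B, where 24.9% and 32.0% of all sites were gained. DNAJC27, a small GTPase with a J-domain, was the only member listed with shMETTL14 and not with NC in both lines. It had 2 peaks in each shMETTL14 list at the stop codon and 3' UTR (chromosome 2, 25170396 to 25170544), with fold enrichments of 6.90 in U2OS and 17.7 in 143B. The U2OS and 143B sites were 125 and 90 nt wide and overlapped by 66 nt, and their p-values of 2.0e-04 and 6.0e-05 were modest. DNAJC3, an inhibitor of the kinase PERK that acts in the endoplasmic reticulum, had a 3' UTR place at 96445718 to 96445958 on chromosome 13 at 19.6 in U2OS shMETTL14, 15.4 in U2OS NC and 18.8 in 143B shMETTL14. In 143B NC this place was absent and another 3' UTR site, 96443858 to 96444104, was listed at 6.52. DNAJC16 and DNAJC14 likewise had 3' UTR places in every list but 143B NC.

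DNAJC14, a chaperone of receptor export from the endoplasmic reticulum, had 2 sites in U2OS shMETTL14, 3 in U2OS NC, 4 in 143B shMETTL14 and 2 in 143B NC. Its coding place at 56222043 to 56222316 on chromosome 12 was absent from U2OS shMETTL14 and kept in 143B, where the fold enrichment was 3.12 with shMETTL14 and 2.71 with NC. DNAJC21, a factor of ribosome maturation, kept strong start codon and stop codon places in all lists. 143B shMETTL14 alone added a DNAJC21 3' UTR site at 21.1, the highest fold enrichment among the gained member sites of that list. DNAJC22 had the highest ranks of the genes with a place in all lists: its place over the stop codon and 3' UTR reached 17.4 and 14.1 in U2OS and 24.4 and 14.3 in 143B (shMETTL14 and NC in each). The value in 143B NC came from a 3' UTR site, beside a stop codon site at 2.74. The smallest p-values of the place were 3.6e-06 and 4.5e-10 in U2OS and 2.0e-17 and 1.3e-04 in 143B, and the read counts behind them are unknown. 143B shMETTL14 alone added a start codon peak of DNAJC22 at 4.43. DNAJC2, DNAJC8, DNAJC9, DNAJC13, DNAJC15, DNAJC17 and DNAJC25 kept every place in both lines. DNAJC1 gained a coding site in U2OS (fold enrichment 2.24) and DNAJC10 a coding site in 143B (1.79), each beside a place kept in all lists. DNAJC11 kept a coding place in all lists, which reached the start codon in 143B only, and had a 3' UTR place in both 143B lists only. DNAJC6 (auxilin), which uncoats clathrin vesicles in neurons, was listed only in 143B NC, by 3 isoform entries of 1 weak coding site (p-value 0.004), and DNAJC5 only in the 143B lists.

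Among the BAG cochaperones, BAG5 had 2 coding places in all lists, and BAG1, BAG3 and BAG4 had 1 place each. BAG3, a stress-induced partner of HSP70 in selective autophagy, had 2 peaks with shMETTL14 and 3 with NC in both lines. The 1 BAG3 peak lost in U2OS had a neighbour within 100 bp. BAG1 gained 2 coding peaks in U2OS, entries of 1 site of 104 nt (fold enrichment 2.22, p-value 5.1e-04). That site lay within the BAG1 place found in all lists. BAG4, an inhibitor of death receptor signalling, gained a 3' UTR site in both lines (chromosome 8, 38068698 to 38068877), at fold enrichments of 7.63 in U2OS and 9.97 in 143B; 1 of its 3 NC peaks in U2OS was lost. These sites of 91 and 90 nt shared 1 nt only, so they are neighbours rather than the same peak. BAG5 gained a 3' UTR site in 143B (fold enrichment 7.76).

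The HSP90 cochaperones AHSA1 and STIP1 gained 1 of 22 peaks and lost 0 of 17 in U2OS, and gained 1 of 21 and lost 0 of 17 in 143B. The whole lists gained 20.9% and lost 26.9% of peaks in U2OS, and gained 27.3% and lost 20.7% in 143B. The AHSA1 and STIP1 peaks were isoform entries of few sites. By site, 1 of 6 was gained and 0 of 3 lost in U2OS, against 24.9% and 31.2% of all sites. In 143B, 1 of 5 was gained and 0 of 4 lost, against 32.0% and 24.6%. STIP1 (HOP), which links HSP70 to HSP90, kept both coding places in all lists. Its 3' UTR place was absent from U2OS NC and listed in the other 3, at fold enrichments of 1.76 in U2OS shMETTL14, 2.22 in 143B shMETTL14 and 1.81 in 143B NC. AHSA1, the activator of the HSP90 ATPase, had 13 peaks in U2OS shMETTL14, 9 in U2OS NC, 10 in 143B shMETTL14 and 9 in 143B NC. They covered 955 to 1260 spliced nt. The highest AHSA1 fold enrichment was 3.4 with shMETTL14 and 2.57 with NC in U2OS, and 12.2 with shMETTL14 and 3.04 with NC in 143B, at percentiles 46.8, 22.7, 93.7 and 31.9 of their lists. The value of 12.2 is the highest of 10 entries, and DNAJA4 and DNAJC14 had the same highest value in that list. No change of AHSA1 is read from it. The only AHSA1 peak with no partner, a 60-nt 3' UTR peak in 143B shMETTL14, lay within the span of the others and was shared when whole spans were compared.

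The CCT genes were listed unevenly. CCT5 was listed in U2OS shMETTL14 alone, CCT2 in U2OS NC alone and CCT4 in 143B NC alone, while CCT3 and CCT6A were in all lists. The single-list sites of CCT5 and CCT2 had fold enrichments of 1.26 and 1.39, and the CCT4 sites 3.59 and 3.35. Peaks this close to 1 stand near the lower end of the lists, whose smallest fold enrichments were 1.08 to 1.12. HSPD1 (HSP60), the mitochondrial chaperonin, kept 2 coding places in all lists, and 1 site with a fold enrichment of 1.38 was lost in 143B. HSPE1, its lid, and HSPB1 (HSP27), the only small heat shock protein listed, each kept 1 place in all lists. That of HSPB1 lay across the stop codon, and that of HSPE1 lay in the 3' UTR and reached the stop codon in 143B shMETTL14 only. HSPG2 and HSPBAP1 match the rule by name only. HSPG2 encodes perlecan, a proteoglycan, and was in both U2OS lists; HSPBAP1 was in all lists.

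Between the lines, member sites overlapped more often than sites at large. Of the shMETTL14 member sites, 72 of 78 in U2OS overlapped a site of 143B shMETTL14 (92.3%; all sites 75.0%), and 65 of 81 in 143B overlapped one of U2OS (80.2%; all sites 59.9%). With NC these were 57 of 69 in U2OS (82.6%; interval 71.6 to 90.7; all sites 65.7%) and 58 of 71 in 143B (81.7%; interval 70.7 to 89.9; all sites 63.1%). So 34.3% of all U2OS NC sites and 36.9% of all 143B NC sites had no partner in the other line. DNAJB5, HSPA1B and HSPG2 were in both U2OS lists and neither 143B list, and DNAJC5, HSPA2 and HSPA4L the other way round. A list of peaks cannot tell lack of the RNA from lack of the mark. Of the 8 sites gained in U2OS, 6 overlapped a site of a 143B list, as did 58.2% of all sites gained there; of the 19 gained in 143B, 9 overlapped one of U2OS (all gained sites 44.2%). Of the lost sites, 2 of 5 in U2OS and 1 of 8 in 143B did so (all lost sites 52.9% and 36.1%).

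RefSeq holds 96 protein-coding genes that match the rule, and 40 had no row in the lists. Among these were the heat shock factors HSF1, HSF2, HSF4 and HSF5, STUB1, CCT7, CCT8, BAG6, DNAJB2 and DNAJC7, and 6 of the 7 small heat shock proteins. For them no statement on m6A is made.

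Other chaperone genes outside the name rule were counted for comparison by 45 symbols, with both TOMM70A and TOMM70 for the same gene. Of these symbols, 36 had a peak. They gained 33 of 132 peaks (25.0%) and lost 14 of 115 (12.2%) in U2OS, and gained 35 of 163 (21.5%) and lost 17 of 148 (11.5%) in 143B. The share gained in U2OS was thus above the 20.9% of its list, and the other shares were below the 26.9%, 27.3% and 20.7% of theirs. HSP90AA1 and HSP90AB1, the cytosolic HSP90 genes, kept every peak in both lines, with 7 and 3 peaks in each U2OS list and 8 and 3 in each 143B list. HSP90B1, the HSP90 of the endoplasmic reticulum, lost 1 of 6 peaks in U2OS. CHORDC1, an HSP90-binding protein, had 5 peaks at 2 sites in both shMETTL14 lists and none in either NC list. FKBP5, a cochaperone of steroid receptors, gained 9 of 13 peaks in 143B. PTGES3 (p23) was listed in U2OS shMETTL14 alone with 3 peaks, at a fold enrichment of at most 1.55. Other genes of this list had losses. UBQLN1 lost 2 of 2 NC peaks in U2OS and 3 of 4 in 143B, CLPB lost 3 of 10 in U2OS and LONP1 lost 5 of 15 in 143B.

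The lists do not measure RNA, so the knockdown could not be checked: METTL14 itself had 2 peaks with shMETTL14 and 5 with NC in U2OS, and 4 with shMETTL14 and 1 with NC in 143B. Among osteoblast lineage genes, RUNX2 and SPARC had a peak in every list, and COL1A1 in every list but 143B NC. ALPL, BGLAP, COL1A2, IBSP, SP7 and SPP1 had no row. A peak was also listed for 1 of 5 blood and immune genes (CD68) and 2 of 4 epithelial genes (KRT8 and KRT18). PTPRC and EPCAM had no row, and a missing peak is not missing RNA. The read depth behind the lists is unknown. Peaks of 143B shMETTL14 were wider, with a median spliced width of 236 nt against 209 nt in 143B NC, and 210 nt in both U2OS lists. It is also the list with most member sites gained; the part of the width in this was not tested.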

How the data were processed

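Peak lists of 4 immunoprecipitated MeRIP-seq libraries were used, and no file of the 4 input libraries was analysed here. The submitters' processing notes name HISAT2, Trimmomatic, FastQC (version 0.11.5) and the build hg19. Which program called the peaks, at what threshold and against what denominator is not given in the sources used here, nor is the depth. Per the file headers, each peak has a p-value and a fold enrichment, a linear ratio made by the authors. Both serve to rank or describe peaks inside a list, and no change is read from their values in different lists. No list carries counts, so intervals (exact Clopper-Pearson, 95%) cover counting error of peaks only. For peaks, they treat isoform entries of the same locus as independent.

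Groups came from the sample titles. Peaks counted as shared when their spliced blocks shared 1 bp or more of 1 strand; shares were set beside those of the whole list, and no test was run because each group has 1 list. Members and gene lists were chosen with earlier results of these data known. Named were 15 fixed genes (HSF1, HSF2, HSPA1A and STUB1 among them), genes in only 1 list of a line, per line the 5 gained and 5 lost sites with the highest fold enrichment, the 5 genes with most sites and the 5 highest ranked with a place in all lists. Other members are named to account for their role group, chosen after their values were seen. Near-identical family members and pseudogenes may share reads. Deposited starts count from 0 and are printed from 1. A marker gene is not reported here. Overlap code was tested on simulated losses. Python 3.11.15, numpy 2.4.6, pandas 2.3.3, scipy 1.17.1 and matplotlib 3.10.9 were used.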

Additional observations from a re-analysis of the deposited data

Results flagged for a closer look

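HSPH1 had a 293-nt spliced place at its 5' end (chromosome 13, 31729761 to 31736198). This place was listed in U2OS shMETTL14 and 143B NC and absent from U2OS NC and 143B shMETTL14. By the lists alone, it counted as gained in U2OS and lost in 143B. Its p-values were 7.2e-05 in U2OS shMETTL14 and 2.6e-04 in 143B NC. When whole spans, introns included, were compared, 0 HSPH1 peaks were gained or lost in 143B. Of all 18714 places, 1.05% had this pattern. DNAJA4 sites (shMETTL14 minus NC) differed by -1 in U2OS and by 1 in 143B. DNAJC14 sites differed by -1 in U2OS and by 2 in 143B. With 1 list per group, the difference between the lines was not tested for any of these genes.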

How the results depend on the processing

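All 4 member shares kept within their counting interval when overlap had to reach 50% of the shorter peak, peaks within 100 bp or on either strand counted as shared, whole spans were compared, name-only members were dropped or 1 transcript per gene was used. Counting sites moved the gained share in 143B to 23.5%. Counting genes gave 4.08% for gained in U2OS and for gained and lost in 143B. With p-values at or below the list median, the shares were 1.80% gained and 0.917% lost in U2OS and 1.46% gained and 2.36% lost in 143B. Among peaks above the median fold enrichment, gained was 4.92% in U2OS and 24.3% in 143B, and lost in 143B 14.0%, where the lists had 20.6%, 24.1% and 22.4%. The next 2 settings were chosen after seeing the data. Without HSPH1, gained in U2OS was 7.56% (list 20.9%). Over genes with peaks in all 4 lists, gained and lost in 143B were 10.2% and 4.12% (lists 19.5% and 14.1%). Site ratios and the overlap between lines stayed within their intervals under the alternatives run for them, and of 352 counts for single genes 9 moved by over 1.5 times. No replicate could be left out, as each group has 1 list. No paired analysis was possible because each group has 1 sample. The sequence of the peaks was not examined.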
